A study of Rattus norvegicus with 4 samples.

Results

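The genes described here encode the enzymes and regulators that build fatty acids, triglycerides and cholesterol, measured in 4 rat mammary cancers. Of 34 genes chosen by name, 33 had at least 1 probe set annotated to that gene alone, among 14217 genes so measured on the arrays. They fall into 18 genes of fatty acid and triglyceride synthesis and 15 of the cholesterol pathway, with 54 probe sets in all. The remaining gene, Hmgcs1, which encodes the cytosolic synthase of hydroxymethylglutaryl-CoA, had no such probe set, so its level was not analysed here, and it enters the promoter counts alone.

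All 4 cancers belonged to 1 group and arose in irradiated female rats of the outbred Sprague-Dawley stock. The animals were exposed once, over the whole body and at 7 weeks of age, to 0.5 Gy of 290 MeV/u carbon ions with a spread-out Bragg peak of 6 cm. From 9 weeks of age they ate an AIN-76A diet with 23.5% corn oil, an oil rich in the polyunsaturated fatty acid linoleic acid. Each cancer was hybridised to 1 single-colour array, and it is not stated whether each came from its own rat. Unirradiated, normal and low-fat samples are not analysed here, and the effects of carbon ions and of the diet were therefore not measured. The cancers are called tumours 1 to 4 after their replicate numbers.

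Fatty acid synthesis starts from citrate that leaves the mitochondrion. Atp-citrate lyase and an acetyl-CoA synthetase supply acetyl-CoA, the carboxylases turn it into malonyl-CoA, and fatty acid synthase joins these units into palmitate, which elongases and desaturases then modify and acyltransferases esterify to glycerol. Cholesterol is made from the same acetyl-CoA through mevalonate, isoprenoid units, squalene and a chain of sterol intermediates. Transcription factors of the SREBP family, encoded by Srebf1 and Srebf2, activate both pathways and are held back by Insig proteins when sterols are plentiful. The lactating mammary gland is among the tissues with the highest rates of fatty acid synthesis, and polyunsaturated fat in the diet is known to lower it in liver.

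Values are log2 of the deposited signal after adding 16, so that a difference of 1 is 2-fold for bright probe sets and understates the difference for dim ones. Where a gene had several probe sets, its brightest is meant unless stated. A gene is said to have a 2-fold range when its highest and lowest tumour differed by at least 1 log2. With 1 group and 1 array per tumour no test between groups was possible, and means are given with the SD over the tumours (n = 4). The median of all probe sets, a level of 7.81 (a signal of 209), is used below as a mark for dim values.

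Genes of lipid synthesis gave signals above the middle of the arrays in these cancers, and most of them differed by less than 2-fold between tumours. Of the 33 genes, 32 had a mean above the median level of the arrays, and Acacb was the exception. Over all genes 66.1% had such a mean, since each gene is represented by its brightest probe set. A 2-fold range was found in 8 of 33 genes (24.2%), against 21.1% of all genes measured. It was found in 6 of 18 fatty acid and triglyceride genes (33.3%) and in 2 of 15 cholesterol pathway genes (13.3%). The share over all members lay near that over all genes. Among genes with a mean at the median level or above, 12.4% had such a range, and 7 of the 32 members at that level did. The median SD was 0.31 log2 for fatty acid and triglyceride genes and 0.24 for cholesterol pathway genes, against 0.25 for all genes.

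The 8 genes with a 2-fold range were, in falling order of range, Thrsp, Acacb, Acss2, Insig1, Fads1, Fads2, Sqle and Elovl6. In 6 of the 8 the highest tumour was tumour 1, and in the other two, Sqle and Elovl6, tumour 1 was the lowest. Over all genes, whatever their range, 60.2% were highest or lowest in tumour 1. That share was not computed among all genes with a 2-fold range, so the count is not read as particular to lipid genes. Elovl6 (1.02) and Sqle (1.05) lay just inside the limit and Mvd (0.90) and Scd (0.87) just outside it. When tumour 1 was left out, the number of fatty acid and triglyceride genes with a 2-fold range was 1 in place of 6, that gene being Thrsp, and the number of cholesterol pathway genes was 0 in place of 2. Over all genes the share without tumour 1 was 12.8%.

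**Figure D1:**
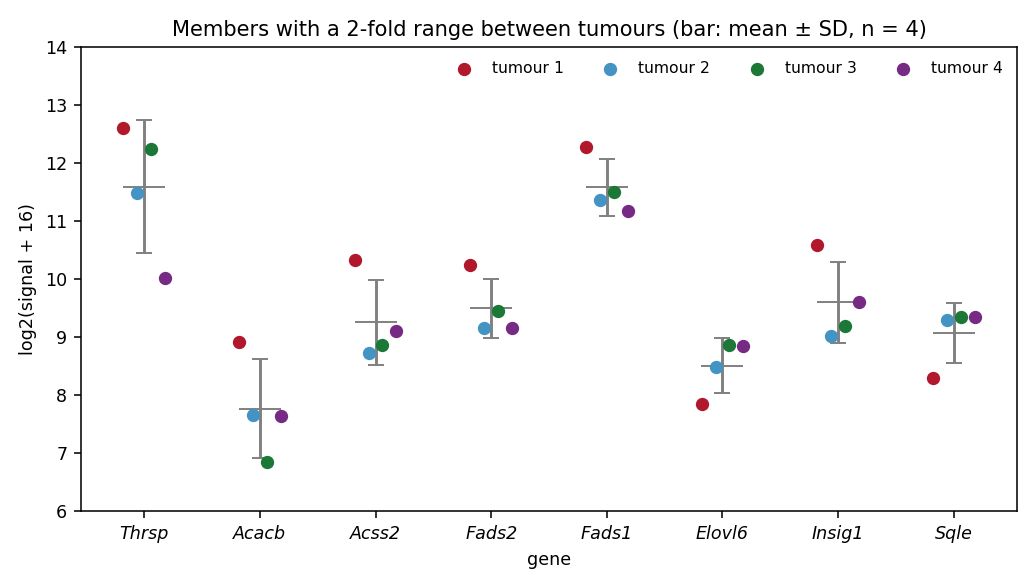
Log2(signal + 16) of the 8 members with a 2-fold range in each of the 4 tumours, shown as coloured points, with the mean and SD (n = 4) in grey. Tumour 1 is the highest point for Thrsp, Acacb, Acss2, Fads2, Fads1 and Insig1 and the lowest for Elovl6 and Sqle, and tumour 4 is the lowest point for Thrsp.

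Among the enzymes that supply carbon and reducing power, Acss2 stood out in tumour 1. Acss2, a cytosolic and nuclear enzyme that makes acetyl-CoA from acetate, measured 10.34, 8.73, 8.86 and 9.10 log2 in tumours 1 to 4 (9.26 ± 0.74, SD, n = 4). Tumour 1 exceeded the next tumour by 1.24 log2, and the other three lay within 0.37 of each other. Acly, the ATP-citrate lyase, had the opposite order, with 12.30 in tumour 1 and 12.69, 12.58 and 12.43 in tumours 2 to 4, although its whole range was 0.39. Me1, the cytosolic malic enzyme that yields NADPH, measured 11.23, 10.73, 10.87 and 10.73 log2. Its second probe set gave 11.36, 10.62, 10.66 and 10.75, so that both were highest in tumour 1.

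The carboxylases and the synthase were also highest in tumour 1. Acacb, the acetyl-CoA carboxylase of the mitochondrial surface whose product restrains fatty acid oxidation, measured 8.93, 7.66, 6.86 and 7.64 log2 (7.77 ± 0.86, SD, n = 4). Only tumour 1 lay above the median level of the arrays, so the size of the difference is uncertain. Acaca, the cytosolic carboxylase that feeds fatty acid synthesis, spanned 0.40 log2, from 10.42 in tumour 4 to 10.82 in tumour 1. Fasn, fatty acid synthase, measured 12.94, 12.75, 12.42 and 12.50 log2 on its brightest probe set, a range of 0.52. Its other probe set gave 12.87, 12.32, 11.01 and 11.24, a range of 1.86. Both probe sets thus placed tumour 1 highest and tumour 3 lowest and disagreed about the size of the difference. Fasn was singled out here after its values were seen.

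Of the regulators, Thrsp varied most of all 33 genes and Srebf1 little. Thrsp encodes Spot 14, a small acidic protein that promotes fatty acid synthesis in liver, adipose tissue and mammary gland. It had signals of 6237, 2854, 4868 and 1029 in tumours 1 to 4, or 12.61, 11.49, 12.25 and 10.03 log2 (11.60 ± 1.14, SD, n = 4). The range of 2.58 log2 corresponds to 5.98-fold, and tumour 4 lay 1.46 below the next tumour. The other two probe sets of Thrsp had ranges of 2.79 and 2.90 and the same order of tumours, with tumour 1 first, then tumours 3, 2 and 4. The transcription factor gene Srebf1 measured 12.05, 11.72, 11.87 and 11.67 log2, a range of 0.39, and its second probe set a range of 0.48, both with tumour 1 highest and tumour 4 lowest.

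The desaturases of polyunsaturated fatty acids were highest in tumour 1, and Scd, a desaturase of saturated ones, was highest in tumour 4. Fads1, the delta-5 desaturase, measured 12.29, 11.37, 11.50 and 11.18 log2 (11.58 ± 0.49, SD, n = 4). Fads2, the delta-6 desaturase that takes the first step from linoleic acid, measured 10.24, 9.16, 9.45 and 9.16 (9.50 ± 0.51, SD, n = 4). In both genes tumour 1 was highest, by 0.79 log2 over the next tumour. Fads1 and Fads2 are neighbours on chromosome 1 in the RefSeq annotation of assembly GRCr8, as is Fads3, a related gene that was not a member. Fads3 measured 8.73, 6.73, 7.95 and 6.88, again with tumour 1 highest, and its mean lay under the median level of the arrays. Scd, a delta-9 desaturase that makes oleate, was instead lowest in tumour 1. It measured 8.50, 8.80, 8.57 and 9.37 in tumours 1 to 4 (8.81 ± 0.40, SD, n = 4). Tumour 1 lay only 0.07 log2 below the next tumour, whereas tumour 4 exceeded the next by 0.57. Whether its single probe set also detects the closely related Scd2 was not tested. Scd2, which was not a member, was brighter and differed little, with 12.69, 12.76, 12.95 and 12.96, a range of 0.27. Its values were added after they were seen.

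The elongases showed 3 patterns. Elovl6, which extends palmitate to stearate, measured 7.85, 8.48, 8.87 and 8.85 log2 (8.51 ± 0.48, SD, n = 4) and was lowest in tumour 1. Its second probe set, dimmer at 7.24, 7.39, 7.89 and 7.68, had the same lowest and highest tumours. Elovl1, which extends saturated very long chains, was the least variable member, with values from 10.45 to 10.53 and an SD of 0.03. Elovl5, which extends polyunsaturated chains, was highest in tumour 3 at 12.04 and lowest in tumour 4 at 11.46. Its second probe set ran the other way, with 9.53 in tumour 3 as its lowest value, so no order of tumours is given for Elovl5.

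The genes of triglyceride assembly were mostly lowest in tumour 1. Gpam, the mitochondrial acyltransferase that starts the pathway, was at 8.20 in tumour 1 against 8.80, 8.59 and 8.53 in tumours 2 to 4. Lpin1, a phosphatidate phosphatase, was at 9.01 against 9.38, 9.09 and 9.81, and Dgat2, an acyltransferase of the final step, at 9.54 against 10.40, 10.09 and 10.19 (10.05 ± 0.36, SD, n = 4). The second probe sets of Gpam, Lpin1 and Dgat2 were lowest in tumour 1 too. Dgat1, the other acyltransferase of that step, was lowest in tumour 4 at 9.56 and lay between 9.91 and 10.13 elsewhere. None of these 4 genes had a 2-fold range on the brightest probe set.

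Tumour 1 was therefore at one end of the scale for most fatty acid and triglyceride genes, in both directions. It was the highest tumour for 9 of the 18 genes (Fasn, Thrsp, Acaca, Acacb, Acss2, Srebf1, Me1, Fads1 and Fads2) and the lowest for 7 (Scd, Acly, Elovl1, Elovl6, Gpam, Lpin1 and Dgat2). The margin to the next tumour ran from 0.18 (Srebf1) to 1.27 log2 (Acacb) for the 9. For the 7 it ran from 0.04 (Elovl1) to 0.64 (Elovl6) and was 0.07 for both Scd and Lpin1. Over all genes, 29.9% were highest in tumour 1, 30.3% were lowest there and 60.2% were one or the other, against 16 of 18 (88.9%) here. Among genes with a mean at the median level or above, 28.0% were highest and 36.2% lowest in tumour 1. The counts of 9 and 7 were the same after shifting the arrays to a common median and after quantile normalization. In tumour 1 the median gene of the list lay 0.19 log2 above its mean over the other three, and the middle 50% of genes spread from -0.38 to 0.82. Acacb and Acss2 (2 genes) lay at least 1 log2 above each other tumour in tumour 1, against 1.89% of all genes. In tumour 4 the median gene lay at -0.20, and Thrsp was the 1 member at least 1 log2 below each other tumour there, against 0.879% of all genes. The medians over all genes were within 0.01 of 0 in every tumour.

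**Figure D2:**
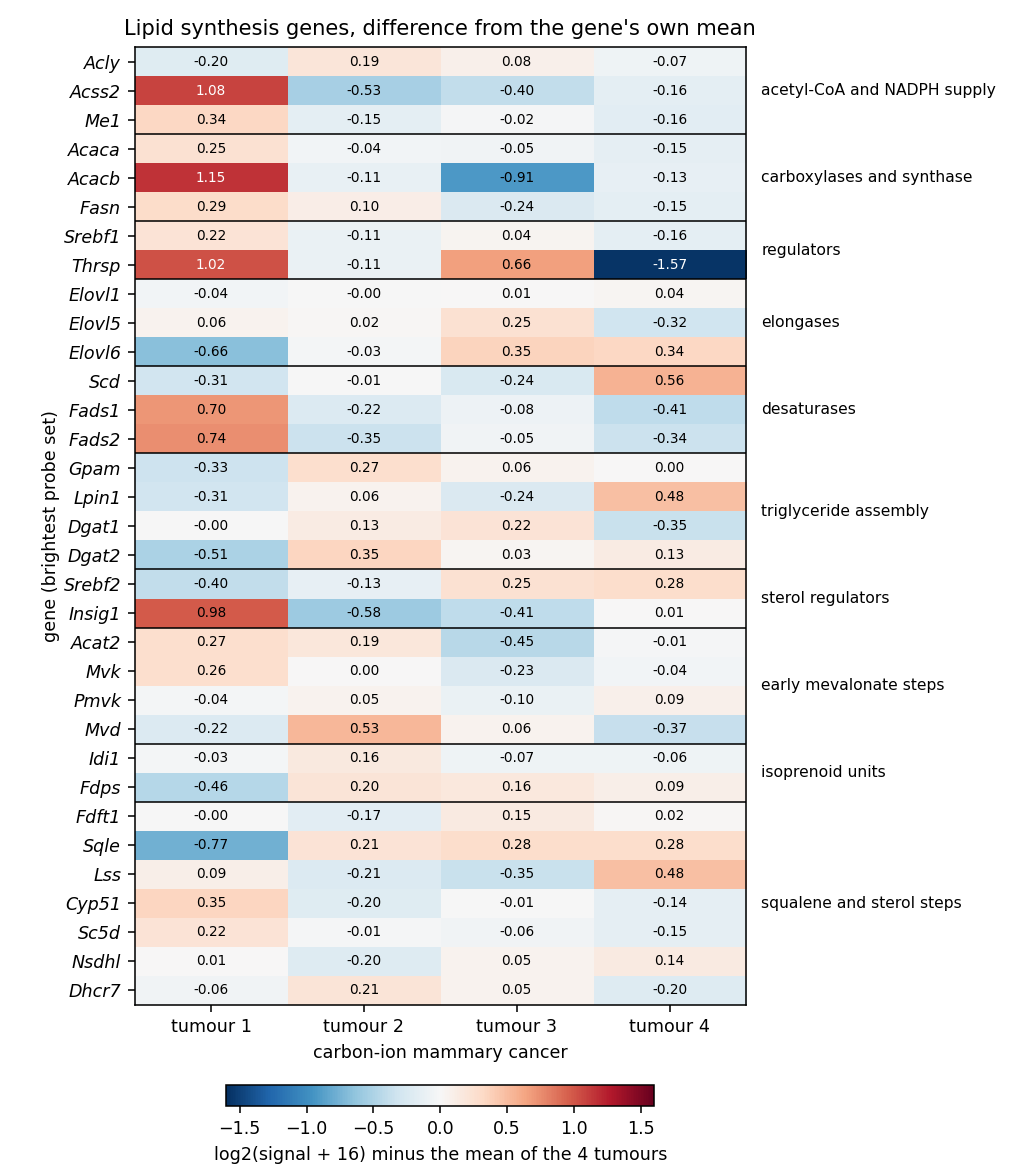
Difference of each of the 33 genes from its own mean over the 4 tumours, in log2 (red higher, blue lower), with 1 row per gene grouped by role and 1 column per tumour. In the column of tumour 1, Acss2, Acacb, Thrsp, Fads1, Fads2 and Insig1 lie 0.70 to 1.15 above their means, while Elovl6, Dgat2, Fdps and Sqle lie 0.46 to 0.77 below theirs.

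In the cholesterol pathway no tumour was set apart by its median gene. The median SD of 0.24 log2 was close to that of all genes, and whether it differed from that of fatty acid and triglyceride genes was not tested. Without tumour 1 the median SDs were 0.16 for cholesterol pathway genes and 0.17 for fatty acid and triglyceride genes. The medians relative to the other tumours were -0.01, 0.00, -0.01 and 0.01 log2 in tumours 1 to 4. Tumour 1 was highest for 5 and lowest for 3 of the 15 genes (53.3% in all), beside the 60.2% of all genes given above. After the shift to a common median these counts were 4 and 4. Sc5d was counted as highest in tumour 1 on its brightest probe set, whereas its other probe sets were highest in tumour 3.

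**Figure D3:**
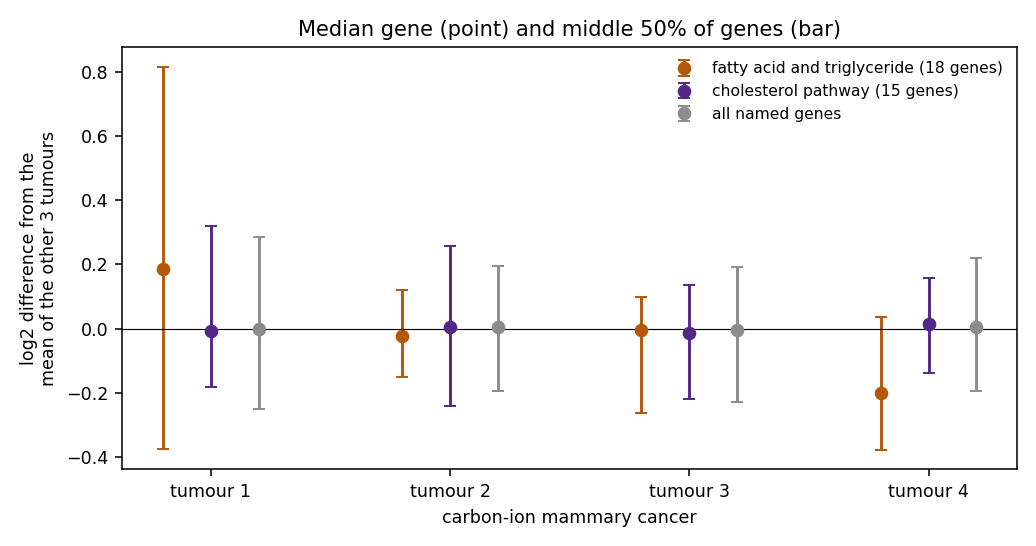
Median difference of the genes of each list from the mean of the other 3 tumours, in log2, with bars over the middle 50% of genes, for fatty acid and triglyceride genes (orange), cholesterol pathway genes (purple) and all named genes (grey). The orange points lie at 0.19 in tumour 1 and -0.20 in tumour 4 with a wide bar in tumour 1, and the purple points lie within 0.02 of 0 in all 4 tumours.

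Insig1 and Sqle were the members of this pathway with a 2-fold range, and they differed in direction. Insig1, a protein of the endoplasmic reticulum that retains SREBP precursors and is itself induced by SREBPs, measured 10.59, 9.02, 9.19 and 9.62 log2 (9.61 ± 0.70, SD, n = 4). Tumour 1 exceeded the next tumour by 0.97. Sqle, squalene epoxidase, a rate-limiting enzyme of sterol synthesis, measured 8.31, 9.29, 9.36 and 9.36 (9.08 ± 0.52, SD, n = 4). Tumour 1 lay 0.99 below the next tumour, and the other three spanned 0.07. Srebf2, which encodes the SREBP that mainly drives cholesterol genes, was also lowest in tumour 1, at 10.93 against 11.19, 11.57 and 11.60 (11.32 ± 0.32, SD, n = 4). Its second probe set, under the median level of the arrays at 6.03, 5.58, 5.35 and 6.55, was lowest in tumour 3 instead.

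The early steps to mevalonate and isoprenoid units showed small and unlike differences. Acat2, the cytosolic thiolase of the first step, measured 9.05, 8.96, 8.33 and 8.76 log2 (8.78 ± 0.32, SD, n = 4), lowest in tumour 3. Mvk, mevalonate kinase, spanned 0.49, highest in tumour 1 and lowest in tumour 3 on both its brighter probe sets. Mvd, the decarboxylase that yields isopentenyl diphosphate, was highest in tumour 2, with 8.02, 8.77, 8.30 and 7.87 (8.24 ± 0.39, SD, n = 4). Fdps, farnesyl diphosphate synthase, was at 10.29 in tumour 1 and at 10.94, 10.91 and 10.84 in tumours 2 to 4 (10.74 ± 0.31, SD, n = 4). Tumour 1 was thus set below the other three for Fdps as it was for Sqle. The phosphomevalonate kinase gene Pmvk and the isomerase gene Idi1 had ranges of 0.19 and 0.23.

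After squalene the enzymes did not share an order of tumours. Lss, lanosterol synthase, was highest in tumour 4, with 9.55, 9.25, 9.11 and 9.94 log2 (9.46 ± 0.37, SD, n = 4). Cyp51, the lanosterol demethylase, measured 10.21, 9.67, 9.85 and 9.72 (9.86 ± 0.24, SD, n = 4), and its second probe set was highest in tumour 1 and lowest in tumour 2 as well. Fdft1, squalene synthase, and the later sterol enzymes Sc5d, Nsdhl and Dhcr7 had ranges between 0.31 and 0.41. The first committed enzyme of the sterol branch, Fdft1, thus differed by 0.31 between tumours, and the next enzyme, Sqle, by 1.05.

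Probe sets of the same gene gave a check on the probes, though not on the RNA or the array, which they share. Of the 33 genes, 18 had at least 2 probe sets, and in 12 of the 18 the brightest and the next probe set were highest in the same tumour, against 44.5% of all genes with several probe sets. The count was 8 of 10 for fatty acid and triglyceride genes and 4 of 8 for cholesterol pathway genes. The next probe set had the contrast between highest and lowest tumour in the same direction in 9 of 10 and in 5 of 8, together 77.8% of the 18 genes, near the 72.1% of all genes with several probe sets. Where the next probe set had a mean at the median level or above, 9 of 14 members (64.3%) shared the highest tumour, against 49.4% of all genes. The direction was then shared in 78.6% of members and 76.2% of all genes. The probe sets of Elovl5, Nsdhl and Sc5d went opposite ways, and the next probe set of Fdft1 had nearly equal values in the tumours compared, 8.67 in both. For Sc5d, a sterol desaturase, the brightest probe set had 9.54 in tumour 1 as its highest value, and the next had 7.94 in tumour 1 as its lowest. Of the 8 genes with a 2-fold range, only Thrsp and Elovl6 had a second probe set, so Acacb, Acss2, Fads1, Fads2, Insig1 and Sqle have no such check. Conversely, 6 of the 21 probe sets that were not the brightest had a 2-fold range: 2 of Thrsp and 1 each of Fasn, Gpam, Lpin1 and Srebf2, the last at a level under the median of the arrays.

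**Figure D4:**
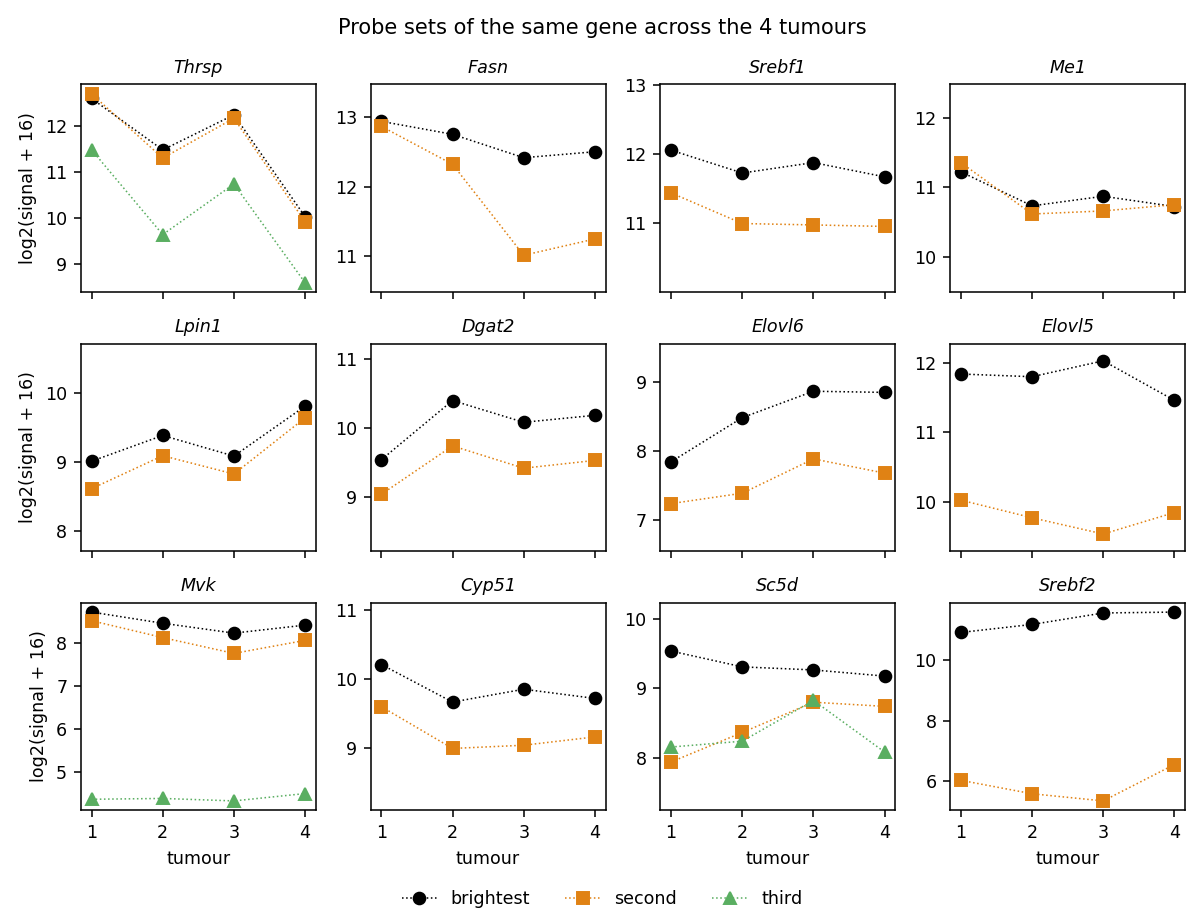
Log2(signal + 16) of every probe set of 12 genes in tumours 1 to 4, with the brightest probe set in black, the second in orange and the third in green, and dotted lines that only link the points of a probe set. The probe sets of Thrsp, Lpin1 and Dgat2 run in parallel, and those of Cyp51 share their highest and lowest tumours. Those of Fasn differ in the size of the range, and those of Elovl5 and Sc5d cross in direction.

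Of 26 further genes of fatty acid and triglyceride synthesis, 20 were measured, and 1 of them, Fads3, had a 2-fold range. Of 15 further genes of the cholesterol pathway, 11 were measured, and 1, the sterol reductase gene Tm7sf2, had a 2-fold range, with 5.06, 5.42, 6.78 and 6.04 log2, all under the median level of the arrays. Olah, the thioesterase that releases medium-chain fatty acids from fatty acid synthase in lactating mammary epithelium, measured 12.57, 13.14, 13.51 and 12.75. It was lowest in tumour 1, while Fasn was highest there. Olah was named after its values were seen.

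The promoters of Thrsp, Acacb, Fads1 and Insig1, which had a 2-fold range, are shown because SREBPs act on such promoters together with NF-Y, a factor that binds the CCAAT box. RefSeq, on assembly GRCr8, gave the bases before the start of 26 of the 34 genes. The sequences below run 5′ to 3′ on the strand of the gene from base 200 before the start, without bases that lie inside the annotated gene through another transcript, and a CCAAT box on either strand (CCAAT or ATTGG) or an E-box (CACGTG) is in capitals. Thrsp is at chr1:161138965-161139164 on the minus strand, Acacb at chr12:48138215-48138414 on the minus strand, Fads1 at chr1:216252492-216252604 on the plus strand and Insig1 at chr4:8057813-8057969 on the minus strand.
Thrsp: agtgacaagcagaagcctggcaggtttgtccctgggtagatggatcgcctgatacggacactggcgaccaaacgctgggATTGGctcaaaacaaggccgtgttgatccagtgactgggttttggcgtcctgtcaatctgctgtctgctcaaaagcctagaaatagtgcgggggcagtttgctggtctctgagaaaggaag
Acacb: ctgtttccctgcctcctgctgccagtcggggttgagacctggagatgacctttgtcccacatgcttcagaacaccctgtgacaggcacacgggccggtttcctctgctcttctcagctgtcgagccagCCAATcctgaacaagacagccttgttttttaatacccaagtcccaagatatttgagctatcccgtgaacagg
Fads1: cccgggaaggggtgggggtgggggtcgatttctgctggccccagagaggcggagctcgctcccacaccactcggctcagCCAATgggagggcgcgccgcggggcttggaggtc
Insig1: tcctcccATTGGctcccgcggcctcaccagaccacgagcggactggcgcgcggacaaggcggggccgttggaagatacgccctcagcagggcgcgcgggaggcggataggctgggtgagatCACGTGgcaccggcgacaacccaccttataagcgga

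A CCAAT box on either strand was found within 250 bases before the start in 19 of the 26 genes (73.1%), against 34.02% of all 33469 promoters in the table. It was found in 9 of 13 fatty acid and triglyceride genes and in 10 of 13 cholesterol pathway genes, and so did not separate the lists. It was present in Thrsp, Acacb, Acss2, Fads1 and Insig1. Fads2, Sqle and Elovl6, the other genes with a 2-fold range, are not among the 19, for lack of the box or of a promoter entry. No sequence is printed for Acss2, Fads2, Sqle or Elovl6. Each sequence printed above holds a CCAAT box, so those shown do not represent all genes with a 2-fold range. The member promoters had a median of 62.0% G and C, against 51.2% over all promoters, and the part of base composition in this count was not tested. The E-box CACGTG was found in Elovl5, Insig1 and Sc5d (11.5% of the 26 genes, against 5.59% of all promoters). The sterol regulatory element core TCACNCCA, searched on both strands, was found in Srebf2 alone, against 3.24% of all promoters. A match is a run of letters in this window and was not tested as a binding site.

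Markers of cell types differed between the same tumours, and their part in the differences of lipid genes was not tested. In bulk tissue, fewer cells of a type and less RNA per cell cannot be told apart. All 8 luminal epithelial markers were above the median level of the arrays and lowest in tumour 1, with a summed signal of 28526 there and between 49231 and 56344 elsewhere. In tumour 1 all 7 macrophage markers exceeded their mean over the other three, with a summed signal of 18223 there and between 8477 and 11274 elsewhere. So did all 7 fibroblast markers, which were all lowest in tumour 4, where their summed signal was 12024 against 29588 to 38553 elsewhere. Among their other probe sets, only that of Col1a1 lay below the mean over the other tumours in tumour 1, with a difference of -0.19. Those of Pdgfrb were lowest in tumour 2. The 6 measured milk protein markers all lay below their mean over the other three in tumour 4, the lowest tumour for Thrsp, with a summed signal of 33571 there and between 53524 and 73042 elsewhere. They did so unequally, with differences of -4.73, -5.22 and -3.36 log2 for Csn2, Glycam1 and Wap. For Csn1s1, Csn3 and Lalba the differences were -0.20, -0.18 and -0.24, and Csn1s1 and Csn3 were lowest in tumour 1. Csn3 had signals from 12301 to 17825, close to the highest on the arrays, which ran from 12739 to 17928. Whether differences are understated at such bright signals was not tested, so the sizes for these genes are uncertain. Of 10 measured adipocyte markers, 8 were under the median level of the arrays, among them Adipoq, Plin1 and Lep, and their summed signal lay between 1365 and 2246, highest in tumour 2. The summed signal was 1575 in tumour 1 and 1365 in tumour 4, of which Lipe alone gave 457 and 622. The sum thus follows Lipe more than the dim markers. Of the 10 markers, 4 were lowest in tumour 4 (Adipoq, Cfd, Fabp4 and Plin4) and 4 in tumour 3. Of 7 basal markers, 4 exceeded their mean over the other tumours in tumour 1, and the summed signal was 27060 there and between 18715 and 28499 elsewhere. Over all 14217 genes, 7087 exceeded that mean in tumour 1 and 6987 lay below it in tumour 4. The shares of all genes that were lowest in tumours 1, 3 and 4 were 30.3%, 25.8% and 23.3%.

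The arrays themselves were alike in scale. Their median signal lay between 201.8 and 221.9, and no 2 arrays held identical values. The log2 ratio of 3′ over 5′ control signal was between -0.02 and 0.04 for GAPDH and between 0.30 and 0.48 for beta-actin, highest in tumour 3. Tumour 1 had 0.03 and 0.30.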

How the data were processed

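RNA of 4 mammary cancers, 1 group, was labelled with biotin and hybridised to 1 array each, from 8 µg of total RNA per the labels' protocols. The deposited intensity values are linear, 1 per probe set and tumour, for 31099 probe sets. The sources used here do not give the software or the scaling. With 2% of values trimmed from either end, every array averaged 500.1, a common scale that the deposited intensity values already had. Detection calls were not used, precision is limited by the number of arrays, and no p-value was computed.

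Probe sets were named from the platform annotation. Of these, 20826 named 1 gene and 436 named several and were left out. The gene identifiers of all 33 measured members were found in RefSeq (GRCr8), and no symbol changed. Intensities were used as log2(value + 16) without further scaling, since shifting the arrays to a common median moved the median gene by up to 0.09 log2 from 0. The probe set of highest mean stood for its gene. Range, SD, highest and lowest tumour and the difference from the mean over the other three were computed in Python 3.11.15 with pandas 2.3.3 and numpy 2.4.6, after a check on simulated arrays. Tumour values were given for members with a range of at least 1 log2 and, up to 8 per list, for those of next largest SD. Other members were given by range, and those also given with tumour values were picked after the values were seen. Members, lists and rules were chosen with earlier results of these data known. Alternatives were median and quantile scaling, pseudocounts of 1 and 64, the mean of all probe sets, a filter at the median level and leaving out each tumour.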

Additional observations from a re-analysis of the deposited data

Results flagged for a closer look

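In 2 genes the gap between 1 tumour and the next was large relative to the range. For Sqle, the gap between tumour 1, the lowest, and the next tumour made up 0.938 of the whole range, and for Fdps it made up 0.837, both past Dixon's 95% critical value for 4 values. Of 37 sets of values examined, these 2 were past it, and chance alone passes about 1 in 20, so their number is near that of chance. The gap for Fdps was 0.55 log2, smaller than the 1.24 of Acss2 and the 1.27 of Acacb, which were not past it. Sqle and Fdps have 1 probe set each.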

How the results depend on the processing

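The contrast between the highest and the lowest tumour was recomputed for 16 genes under each alternative that kept both tumours, and it had the same direction in all 127 cases. Many of these cases could not have changed direction, so the count is not a measure of robustness. Leaving out another tumour or filtering by level leaves the contrast as it was, and a pseudocount keeps the order of tumours within a probe set. The number of fatty acid and triglyceride genes with a 2-fold range, 6, was between 1 and 6 when each tumour was left out in turn, and that of cholesterol pathway genes, 2, between 0 and 2. The lowest counts, 1 and 0, were those without tumour 1. The median SD lay between 0.17 and 0.40 for the first list and between 0.16 and 0.25 for the second, and both lowest values, 0.17 and 0.16, were again without tumour 1. A pseudocount of 64 left 1 cholesterol pathway gene with a 2-fold range, and shifting the arrays to a common median gave 3, the added gene being Mvd. The median difference of tumour 1 in fatty acid and triglyceride genes stayed between 0.08 and 0.26 log2 and that of tumour 4 between -0.27 and -0.09, while those of cholesterol pathway genes lay between -0.13 and 0.07 over all tumours and alternatives. The shared highest tumour of probe sets was counted in 9 to 14 genes. Dim signals, such as Acacb outside tumour 1, limit the size of a difference. No paired analysis was possible because there was 1 group.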
